A study of Gallus gallus with 9 samples.

Results

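Solute carriers are the membrane proteins, named SLC or SLCO with a family number, that move amino acids, sugars, organic acids, lipids, metals and ions across the plasma membrane and the membranes of organelles. In the liver they take up nutrients, bile salts and hormones from blood, release glucose and export metals. Selenized yeast carries selenium mainly as selenomethionine, an amino acid that enters cells through the carriers of methionine. Livers of ROSS308 broilers, chickens bred for meat, were compared between a control group of 4 birds on a standard diet with no added selenium and a Se-yeast group of 5 birds on the same diet with the selenized yeast Sel-Plex, dosed to supply an extra 0.5 mg Se/kg. Both groups ate freely from chick age until slaughter at 35 days, and the authors set 1 further control bird aside for its quality. RNA was measured on a 1-colour Affymetrix array, 1 array per bird, and values are MAS5 signals, a linear probe set intensity that the authors scaled on each array. The labels number the birds of each group as biological replicates and give neither sex nor batch.

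Members were the genes whose only annotated symbol has the form SLC, number, letter and number, or SLCO with the same ending. The mitochondrial SLC25A carriers and the glucose carrier SLC2A2 were left out, 34 genes in all. This gave 251 of the 13009 gene symbols on the array. Each gene was read by its brightest probe set over all 9 arrays and was kept if the mean log2(signal + 16) was 7 or more. 157 genes of 42 families were kept, and 94 fell short of the level. Just inside lay SLC8A1 at 7.00, SLC22A15 at 7.04 and SLC6A15 at 7.07. Just outside lay SLC9B2 at 6.98, SLC12A3 at 6.98 and SLC28A3 at 6.96. The bile acid exporter subunits SLC51A and SLC51B and the 4 SLC2A11L and SLC51AL genes have symbols of another ending and were not counted as members. The roles given below are known mainly from mammals.

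The kept carriers had mean signals between 120.1 and 26649.8, and 14 reached a mean log2 level of 12 or more. Signals of different probe sets do not rank the amounts of their transcripts, since each probe set binds with its own strength. The probe set of 50 of the 157 genes ends in _s_at or _x_at, which marks probes that can also read related transcripts. By the RefSeq table of GRCg7b the kept genes lie on 29 chromosomes, 26 of them on chromosome 1, 16 on chromosome 3 and 6 on chromosome Z.

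Median signals of the 9 arrays lay between 101 and 125 (exact permutation p = 0.429 between diets, two-sided). The mean correlation of an array with the other 8 was 0.953 in control and 0.948 in Se-yeast livers (exact permutation p = 0.0397). Hepatocyte markers were bright on every array, with a summed signal over 8 genes of 333463 to 394665 in control and 394753 to 601755 in Se-yeast livers. The groups were apart by a very narrow margin, and the highest sums were those of Se-yeast birds 1 and 2 (601755 and 494788). Of these genes 7 had a higher mean with Se-yeast and 1 a lower one, and none passed the threshold. The lower one was F2, with mean signals of 19069 in control and 17848 in Se-yeast livers. The sum over 7 macrophage markers was 61242 to 76605 in control and 75855 to 92809 in Se-yeast livers, and 7 of 7 had a higher mean with Se-yeast. Of the bile duct markers SOX9 and CFTR lay below the signal filter, as did all 4 markers of exocrine pancreas on the array. The part of these cell types in the results below was not tested, and in a piece of liver fewer cells of a type cannot be told apart from less RNA per cell. Se-yeast bird 1 stood apart on the sex chromosomes: its signal of the W chromosome gene HINTW was 396 against 24 to 114 in the other birds. Its Z chromosome genes stood -0.35 on the log2 scale from its autosomes, against 0.00 to 0.11 in the others. Values without this bird are given with the Z chromosome carriers.

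The diets were compared to learn which liver carriers differ with the supplement. None of the 157 carriers passed the threshold, an adjusted p of 0.05 by limma with Benjamini-Hochberg adjustment over all 23063 probe sets tested, where 0.026% of probe sets passed. The adjusted p of every carrier rounds to 0.999 or more. At an unadjusted p under 0.05 there were 9 carriers, 7 higher and 2 lower with Se-yeast, where 2.69% of all probe sets were on this count higher and 1.98% lower. They made up 5.73% of the carriers, against 4.67% of all probe sets tested, so this share lies near the background. With each of the 9 birds left out in turn, SLC37A1, SLC20A2, SLC16A4 and SLC16A5 stayed under 0.05 every time, SLC35C2, SLC22A5 and SLC27A1 in 5 to 7 of the 9 fits, and SLC9A8 and SLC10A4 in 3. These carriers were chosen by their small p in the fit of all birds, and each refit shares most of its birds. Staying under 0.05 is therefore no separate evidence of a difference. 3 carriers, or 1.91%, had groups that did not overlap, against 1.64% of all. The other 153 tested probe sets of the same genes held 9 at an unadjusted p under 0.05, all of them higher with Se-yeast, and 0 past the threshold. Over all probe sets tested, 4.67% were under 0.05, and 2.69% were under it and higher.

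Differences are given as Se-yeast minus control on the log2(signal + 16) scale, on which 1 is a 2-fold change and dim genes are pulled towards 0. They ran from -0.48 for SLC35F3 to 0.98 for SLC16A5, with a median of 0.05 and quartiles of -0.10 and 0.22. Over all probe sets tested the median was 0.02 and the quartiles -0.14 and 0.17. 99 carriers, or 63.1%, had a higher mean with Se-yeast and 58 a lower one, where 53.1% of all probe sets lay on the higher side. That split depended on the scaling of the arrays. With each array centred on its median, 78 carriers were higher and 79 lower (49.7% higher), the median of the carriers was -0.01, and 42.6% of all probe sets were higher. With quantile normalization 94 carriers were higher and 63 lower (59.9% higher), their median was 0.05, and 48.8% of all probe sets lay on the higher side. 12 carriers, or 7.64%, lay more than 0.5 from 0 in either direction, against 7.97% of all probe sets tested and 5.54% of those at a level of 7 or more.

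The intervals limit how large a missed change could be. For 135 of the 157 carriers the whole 95% interval of the difference lay within 2-fold in both directions. This was 86% of the carriers, against 89.5% of all probe sets at a level of 7 or more. All 17 metal carriers and all 16 carriers of lipids, choline and vitamins were among them, but only 5 of 9 monocarboxylate carriers. For the other carriers a difference of more than 2-fold lies within the interval.

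**Figure D1:**
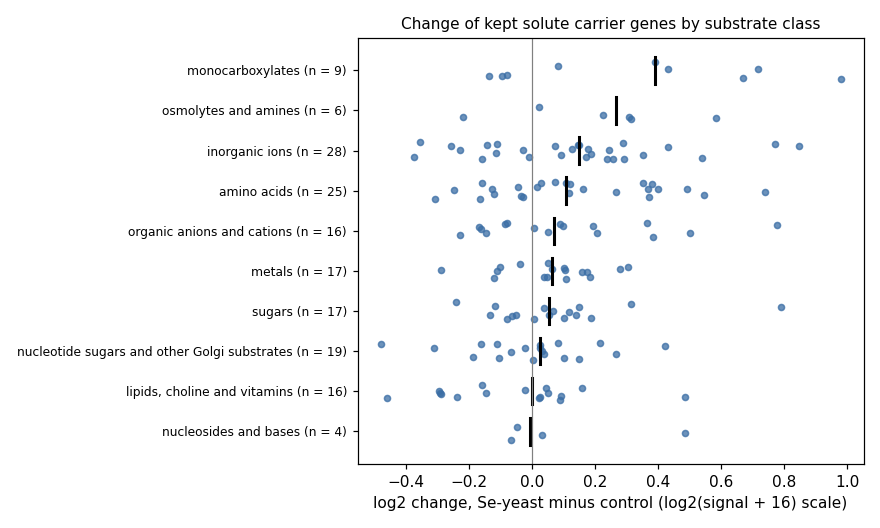
The log2 difference of each of the 157 kept solute carrier genes (x axis, Se-yeast minus control) is drawn as a point in the row of its substrate class, and the bar is the median of the class. Every class lies across 0, the medians run from -0.01 for nucleosides and bases to 0.39 for monocarboxylates, and no point passed the threshold.

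Amino acid carriers were kept for 25 of 38 genes, and of these 16 had a higher and 9 a lower mean in Se-yeast livers, with a median difference of 0.11. Classes were set mainly by SLC family, so SLC6A19, named below, counts with the osmolytes and amines. Carriers of methionine or cystine and their subunits formed a list of 18 genes, of which 10 were kept. Of these, 7 were higher and 3 lower, none passed the threshold, and the median was 0.14. On their brightest probe sets none reached an unadjusted p under 0.05. Over all probe sets tested 4.67% did, so none among 10 lies near the background. SLC1A5, SLC3A2, SLC6A14, SLC7A8 and SLC43A1, also on the list, had no probe set annotated with that symbol alone. They were not read, so the list was covered only in part. SLC43A2 encodes LAT4, a carrier of large neutral amino acids that include methionine. The SLC43A2 signal was 386, 527, 733 and 557 in control birds 1 to 4 and 838, 774, 707, 582 and 694 in Se-yeast birds 1 to 5, a difference of 0.40 (95% interval -0.01 to 0.80). Only Se-yeast birds 1 and 2 exceeded the highest control bird, and control bird 1 was the lowest of all. SLC7A5 encodes LAT1, the exchanger that brings leucine and methionine into growing cells. Its signal was 508, 253, 295 and 396 in the control birds and 399, 347, 324, 748 and 619 in the Se-yeast birds, a difference of 0.38 (-0.21 to 0.97). A probe set of SLC7A5 that is nearly as bright gave 0.64 at an unadjusted p of 0.009 (limma), which did not pass after adjustment (adjusted p = 0.999). On the brighter probe set Se-yeast birds 4 and 5 were highest and control bird 1 came next.

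SLC38A2, the SNAT2 carrier of small neutral amino acids, showed the same 3 birds at the top. The SLC38A2 signal was 2267, 973, 971 and 1157 in control and 994, 622, 1030, 2281 and 2247 in Se-yeast livers, so control bird 1 and Se-yeast birds 4 and 5 lay between 2247 and 2281 and the other 6 birds lay at 1157 or less. The difference between diets was 0.02, with an interval of -0.80 to 0.83. SLC38A4, the SNAT4 carrier that marks hepatocytes, stood at 0.16 (-0.23 to 0.55), with signals of 14707, 12737, 9171 and 13896 in control and 13341, 13591, 9943, 17025 and 16846 in Se-yeast livers. Without control bird 3, the lowest of all, SLC38A4 stood at 0.01. SLC38A1, SLC38A2 and SLC38A4 follow each other on chromosome 1 by the RefSeq gene order, and SLC38A1 stood at 0.49 with its highest value, 2231, in Se-yeast bird 3 and not in birds 4 or 5. SLC38A2 and SLC38A4 thus had the same 3 birds at the top, control bird 1 and Se-yeast birds 4 and 5, while their neighbour SLC38A1 did not. The 5 probe sets of SLC38A1 at a level of 7 or more gave 0.45 to 0.85. The value of 0.85, from the dimmest of them, had an unadjusted p of 0.022 (limma adjusted p = 0.999).

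SLC3A1, the rBAT subunit of the carrier of cystine and dibasic amino acids, stood at -0.05 (-0.42 to 0.33). Its mean signal was 2304 ± 338 over the 4 control birds and 2256 ± 483 over the 5 Se-yeast birds (SD). Its partner SLC7A9, the intestinal and renal methionine carrier SLC6A19 and the cystine carrier SLC7A11 lay below the level cut, at mean log2 levels of 5.97, 6.36 and 5.69. Of the carriers of cationic amino acids, SLC7A2 stood at 0.27 and SLC7A3 at 0.74 (-0.14 to 1.62). The SLC7A3 signal was 313, 286, 287 and 148 in control and 370, 355, 1289, 213 and 376 in Se-yeast livers, and Se-yeast bird 3 was higher than every other bird, the next of which reached 376. Without that bird the difference of SLC7A3 was 0.35. The 3 probe sets of SLC7A3 at the level of 7 or more gave 0.74, 0.25 and 0.16, and a dimmer one gave 1.23 at an unadjusted p of 0.0036 (limma adjusted p = 0.999). The glutamate carriers SLC1A1 and SLC1A2 stood at 0.37 and 0.11, the light chains SLC7A6 and SLC7A7 of y+L exchangers at 0.35 and -0.31, and the glutamine carrier SLC38A3 at 0.12. SLC36A1, the lysosomal proton-coupled amino acid carrier, stood at -0.25, and SLC38A9, an arginine sensor of the lysosome, at -0.12.

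Monocarboxylate carriers move lactate, pyruvate, ketone bodies and related acids, and 9 of 12 were kept. Of these, 6 had a higher and 3 a lower mean in Se-yeast livers, with a median difference of 0.39. An unadjusted p under 0.05 was reached by 2, SLC16A5 and SLC16A4, where 4.67% of all probe sets tested reached it. A class of 9 genes is too small to set against that share, and it was not tested as a set. SLC16A5 encodes MCT6, a carrier of drugs such as bumetanide whose natural substrates are poorly known. The SLC16A5 signal was 652, 885, 753 and 734 in control and 842, 894, 1245, 2386 and 3326 in Se-yeast livers. Se-yeast birds 2 to 5 lay above every control bird, bird 2 only just, and bird 1 lay at the control range. The difference was 0.98 (0.22 to 1.74; limma adjusted p = 0.999), the largest positive value among the carriers, and leaving out single birds moved it between 0.69 and 1.18.

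SLC16A4, the orphan carrier MCT5, stood at 0.72 (0.19 to 1.24). Its signal was 113, 88.9, 173 and 193 in control and 209, 272, 285, 239 and 181 in Se-yeast livers, where only Se-yeast bird 5 lay below the highest control bird. The next probe set of SLC16A4 lay below the level cut and gave 0.25. SLC5A8, a sodium-coupled carrier of short-chain acids, stood at 0.67 and SLC16A6, a carrier of ketone bodies in zebrafish, at 0.43, both with overlapping groups. SLC16A1, the lactate and pyruvate carrier MCT1, had a bright probe set and overlapping groups. The SLC16A1 signal was 4865, 6183, 6118 and 5264 in control and 3859.8, 5642, 6692, 5758 and 8578 in Se-yeast livers, with a difference of 0.08 (-0.34 to 0.50). Its chaperone basigin, the product of BSG, stood at 0.08 (-0.22 to 0.37). SLC16A12, a creatine carrier, stood at -0.14. SLC16A10, which carries aromatic amino acids and thyroid hormone and was not counted in this class, stood at -0.13.

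SLC22A5 encodes OCTN2, the sodium-coupled carrier that brings carnitine into cells for fatty acid oxidation. The SLC22A5 signal was 7664, 9276, 14092 and 11809 in control and 10558, 13768, 15251, 25130.2 and 32759 in Se-yeast livers. Se-yeast birds 4 and 5 were by far the highest, bird 3 lay just above the highest control bird, and Se-yeast birds 1 and 2 lay within the control range. The difference was 0.78 (0.14 to 1.42; limma adjusted p = 0.999), and without Se-yeast bird 5 it was 0.56. The other 2 probe sets of SLC22A5 above the filter gave 0.79 and 0.41.

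Carriers of organic anions and cations, SLC22A5 included, were kept for 16 of 27 genes, and 10 had a higher and 6 a lower mean in Se-yeast livers, with a median difference of 0.07. The SLCO family takes bile salts, steroid sulfates, thyroid hormones and many drugs into hepatocytes. SLCO1A2, SLCO1B1 and SLCO1B3 are neighbours on chromosome 1, and SLCO1A2 and SLCO1B3 had bright probe sets with little spread. The SLCO1A2 signal was 28682, 27068, 24961 and 29263 in control and 26112, 30669, 23325, 26329 and 23440.3 in Se-yeast livers, a difference of -0.09 (-0.33 to 0.16). SLCO1B3 stood at 0.10 (-0.14 to 0.33), with 14658 ± 1470.1 in control and 15624 ± 793 in Se-yeast livers (SD over 4 and 5 birds). SLCO2B1, a carrier of steroid sulfates, stood at 0.50 (-0.02 to 1.02). Its signal was 2459, 3229, 2620 and 2498 in control and 2933, 2438, 3488, 5591 and 5729 in Se-yeast livers, so Se-yeast birds 4 and 5 again lay far above the rest while bird 2 was the lowest of all 9.

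SLCO4A1 stood at 0.05, the prostaglandin carrier SLCO2A1 at 0.38, the toxin exporter SLC47A1 at -0.17 and the sialic acid exporter of lysosomes, SLC17A5, at -0.15. A dimmer probe set of SLCO4A1, still above the level cut, gave 0.51 at an unadjusted p of 0.024 (limma adjusted p = 0.999). The bile acid exporter of hepatocytes and bile duct cells is built from SLC51A and SLC51B. SLC51A gave signals of 11056 ± 1621 and 10567 ± 1234 (SD, n = 4 and n = 5), a difference of -0.06 (-0.35 to 0.23), and SLC51B stood at 0.13 (-0.26 to 0.53). With these exporter subunits, the list of bile acid, organic anion and cation uptake genes had 11 higher and 5 lower of 16, a median of 0.09 and 0 past the threshold. Of the other symbols of that kind, SLC2A11L4 stood at -0.19 and SLC2A11L5 at 0.14. The bile acid sensor NR1H4 stood at 0.14, and the sodium taurocholate carrier SLC10A1 was not analysed here.

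Carriers of lipids, choline and vitamins were kept for 16 of 21 genes, and 8 had a higher and 8 a lower mean in Se-yeast livers, with a median difference of -0.0012. SLC27A2 and SLC27A4 encode fatty acid transport proteins that also activate fatty acids to acyl-CoA. The SLC27A2 signal was 16247, 15467, 17937 and 17955 in control and 16538, 18872, 18887, 15931 and 16851 in Se-yeast livers, with a difference of 0.04 (-0.19 to 0.27). SLC27A4 stood at 0.02 (-0.50 to 0.54) with a wider spread, from 2888 in control bird 4 to 6861 in Se-yeast bird 2. SLC27A1, best known from muscle and fat, was the 1 carrier whose lowest Se-yeast value exceeded its highest control value. The SLC27A1 signal was 159, 146, 99.8 and 129 in control and 172, 183, 219.8, 201 and 180.3 in Se-yeast livers. The difference was 0.48 (0.06 to 0.91; limma adjusted p = 0.999), and the gap between the nearest birds of the groups was small, since control bird 1 reached 159 and Se-yeast bird 1 172. Such a separation in that direction was seen in 0.889% of all probe sets tested. The other probe set of SLC27A1 lay below the filter and went the other way, at -0.66.

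SLC44A5, a member of the choline carrier-like family, had all its Se-yeast values below the lowest control value, but by little. Its signal was 510.2, 511, 526 and 577 in control and 492, 476, 418, 429 and 424 in Se-yeast livers, a difference of -0.24 (-0.54 to 0.06). SLC10A4, a neuronal relative of the bile acid carriers with no known bile acid transport, stood at -0.46 (-0.91 to -0.01). The SLC10A4 signal was 344, 313, 475 and 371 in control and 185, 322, 343, 226 and 282 in Se-yeast livers, so the groups overlapped in Se-yeast birds 2 and 3. Its second probe set gave -0.05. Without Se-yeast bird 1, its lowest, SLC10A4 stood at -0.34 and no longer reached an unadjusted p under 0.05. Of the vitamin carriers, the folate carrier SLC19A1 stood at 0.16, the thiamine carrier SLC19A2 at -0.29, the ascorbate carriers SLC23A1 and SLC23A2 each at 0.09, the proton-coupled folate carrier SLC46A1 at 0.05 and the riboflavin carrier SLC52A3 at 0.02. A dimmer probe set of SLC46A1, still above the level cut, gave 0.54. SLC48A1, which moves heme out of lysosomes, stood at -0.15. None of these passed the threshold.

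Sugar and sugar phosphate carriers were kept for 17 of 26 genes, and 11 had a higher and 6 a lower mean in Se-yeast livers, with a median difference of 0.05. The class was set mainly by family and not by each gene's own substrate. SLC5A5, SLC5A7 and SLC5A12, all below the level cut, are counted in it for that reason. SLC37A4 carries glucose 6-phosphate into the endoplasmic reticulum, the step before the liver releases glucose, and it had the smallest spread between birds of all the carriers. The SLC37A4 signal was 7293, 7168, 7309 and 8267 in control and 7277, 7422, 7172, 7513 and 6803 in Se-yeast livers, with a difference of -0.05 (-0.27 to 0.17). Its relative SLC37A1, a second glucose 6-phosphate carrier, had the smallest unadjusted p of the 157 carriers. The SLC37A1 signal was 178, 103, 126.4 and 138 in control and 165, 233, 254, 286 and 303 in Se-yeast livers. Se-yeast birds 2 to 5 lay above every control bird, and Se-yeast bird 1 lay below control bird 1. The difference was 0.79 (0.30 to 1.27), at an unadjusted p of 0.0038 by limma (adjusted p = 0.999), and it stayed between 0.68 and 0.92 with single birds left out. The gene's other probe set lay below the filter at -0.06. SLC37A2 and SLC37A3 stood at 0.14 and -0.24.

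SLC2A5, the fructose carrier, stood at -0.12 (-0.44 to 0.20), with 5709 ± 839 over the control and 5257 ± 786 over the Se-yeast birds (SD). SLC2A9, the urate carrier, stood at -0.13 (-0.48 to 0.21), the widespread glucose carrier SLC2A1 at -0.08 (-0.48 to 0.32) and the intracellular SLC2A8 at 0.04. SLC2A12, an insulin-responsive glucose carrier of mammals, had the second largest spread between birds. The SLC2A12 signal was 24.4, 188, 283 and 279 in control and 285, 218, 261, 135 and 105 in Se-yeast livers. Control bird 1 was far below the rest, and the difference of 0.31 turned to -0.36 without it. SLC5A3, the carrier of the osmolyte myo-inositol, stood at 0.58 (-0.02 to 1.18), with signals of 283, 180.1, 83.9 and 153 in control and 194, 280.2, 240.3, 253 and 294 in Se-yeast livers, where control bird 1 lay among the highest Se-yeast birds. Without control bird 3, the lowest of all, SLC5A3 stood at 0.31. The taurine carrier SLC6A6 stood at -0.22, the betaine carrier SLC6A12 at 0.31 and the serotonin carrier SLC6A4 at 0.31. The probe sets of SLC6A12 differed most among all carriers read by more than 1 bright probe set, from -0.37 to 0.87.

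Metal carriers were kept for 17 of 25 genes, and 12 had a higher and 5 a lower mean in Se-yeast livers, with a median difference of 0.06. None reached an unadjusted p under 0.05, against 4.67% of all probe sets tested. None had groups that did not overlap, against 1.64% of all. In a class of 17 genes such counts lie near the background. SLC31A1, the copper importer CTR1, stood at 0.10 (-0.30 to 0.50), with signals of 9162, 7350.1, 6327 and 8896 in control and 8736, 5827, 7541, 10534 and 10491 in Se-yeast livers, and its 6 probe sets lay between -0.02 and 0.29. SLC30A10, which exports manganese, stood at 0.17 (-0.31 to 0.66), with signals of 1543, 2128, 1414 and 1812 in control and 1654, 1316, 1670, 2396 and 3007 in Se-yeast livers. Its highest values again belonged to Se-yeast birds 4 and 5, and without bird 5 the difference was 0.01. SLC40A1, the iron exporter ferroportin, stood at -0.11 (-0.74 to 0.51), with signals of 507, 375, 228 and 243 in control and 289.5, 167, 332, 303 and 459 in Se-yeast livers that spread widely in both groups. The zinc exporters SLC30A1 and SLC30A5 stood at 0.16 and -0.12, the zinc importers SLC39A5 and SLC39A8 at -0.29 and 0.06, and the magnesium carriers SLC41A1 and SLC41A3 at 0.28 and 0.30. Dimmer probe sets above the level cut gave 0.30 and 0.77 for SLC41A1 and 0.61 and 0.55 for SLC41A3. The value of 0.77 had an unadjusted p of 0.029 (limma adjusted p = 0.999).

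Carriers of inorganic ions were kept for 28 of 53 genes, and 18 had a higher and 10 a lower mean in Se-yeast livers, with a median difference of 0.15. A narrower list of anion carriers, with the SLC37 family counted in, had 12 higher and 7 lower of 19. SLC20A2, the sodium phosphate importer PiT-2, stood at 0.54 (0.15 to 0.93; limma adjusted p = 0.999). The SLC20A2 signal was 668, 696, 596 and 729 in control and 1001, 838, 723, 1156 and 1300.4 in Se-yeast livers. Every Se-yeast bird but bird 3 lay above the highest control bird, and the second probe set of SLC20A2 gave 0.77. SLC9A8, a sodium proton exchanger of the Golgi, had no Se-yeast value as high as its lowest control value. Its signal was 2788, 2698, 2602 and 2429.5 in control and 2137, 2143, 2316, 1988 and 2403 in Se-yeast livers, a difference of -0.26 (-0.51 to -0.01; limma adjusted p = 0.999), and its dimmer probe set gave -0.16. Groups apart in that direction were seen in 0.75% of all probe sets tested. SLC26A5, the motor protein prestin of the mammalian inner ear, was read by a bright probe set that can also read related transcripts, with signals of 7621, 5816, 6622 and 7261 in control and 4567, 6682, 5884, 7683 and 6329 in Se-yeast livers and a difference of -0.15 (-0.48 to 0.19).

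SLC4A3, the anion exchanger AE3, stood at 0.85 (-0.03 to 1.72) but was dim and scattered in control birds, with signals of 245, 53.1, 42.7 and 136, against 209, 126.02, 205, 269.6 and 152 in Se-yeast birds. Control birds 2 and 3 were low and control bird 1 was second highest of all. SLC4A4, the sodium bicarbonate cotransporter, stood at 0.43, the mitochondrial sodium calcium exchanger SLC8B1 at 0.29 and the chloride cotransporter SLC12A2 at 0.26. Sodium-coupled carriers draw on the sodium pump, whose subunit gene ATP1B1 stood at 0.07 and ATP1B3 at -0.36. Of 15 partner and regulator genes listed, 10 were tested and 0 passed. ATF4, which in mammals raises amino acid carriers under amino acid shortage, had the smallest p of these, at 0.32 (0.01 to 0.63).

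Carriers of nucleotide sugars and other substrates of the Golgi and endoplasmic reticulum, which feed glycosylation, were kept for 19 of 25 genes, and 11 had a higher and 8 a lower mean in Se-yeast livers, with a median difference of 0.02. Most stayed close to 0, among them the CMP-sialic acid carrier SLC35A1 at 0.02, SLC35A3 at 0.02 and SLC35D1 at -0.02. SLC35C2, which takes part in the fucosylation of Notch in mammals, stood at 0.42 (0.09 to 0.75; limma adjusted p = 0.999). The SLC35C2 signal was 1959, 2249.8, 2853 and 1982 in control and 2979.8, 2548, 3656, 3086 and 2811 in Se-yeast livers, and control bird 3 overlapped the Se-yeast birds. Its relative SLC35C1, the GDP-fucose carrier, stood at 0.15. SLC35F3, a putative thiamine carrier, had the lowest difference, -0.48 (-1.56 to 0.60), but its signals of 1111, 264, 187 and 468 in control and 125.5, 275, 339, 701 and 217 in Se-yeast livers overlapped fully, and without control bird 1 the difference was -0.01. A dimmer probe set of SLC35F3, still above the level cut, gave -0.51 at an unadjusted p of 0.116 (limma adjusted p = 0.999). Its signals were 240 ± 77 in control and 169 ± 76 in Se-yeast livers (SD). Of 4 carriers of nucleosides and bases kept, SLC29A3 stood at 0.49 and SLC29A1, SLC28A2 and SLC43A3 at -0.05, -0.07 and 0.03.

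**Figure D2:**
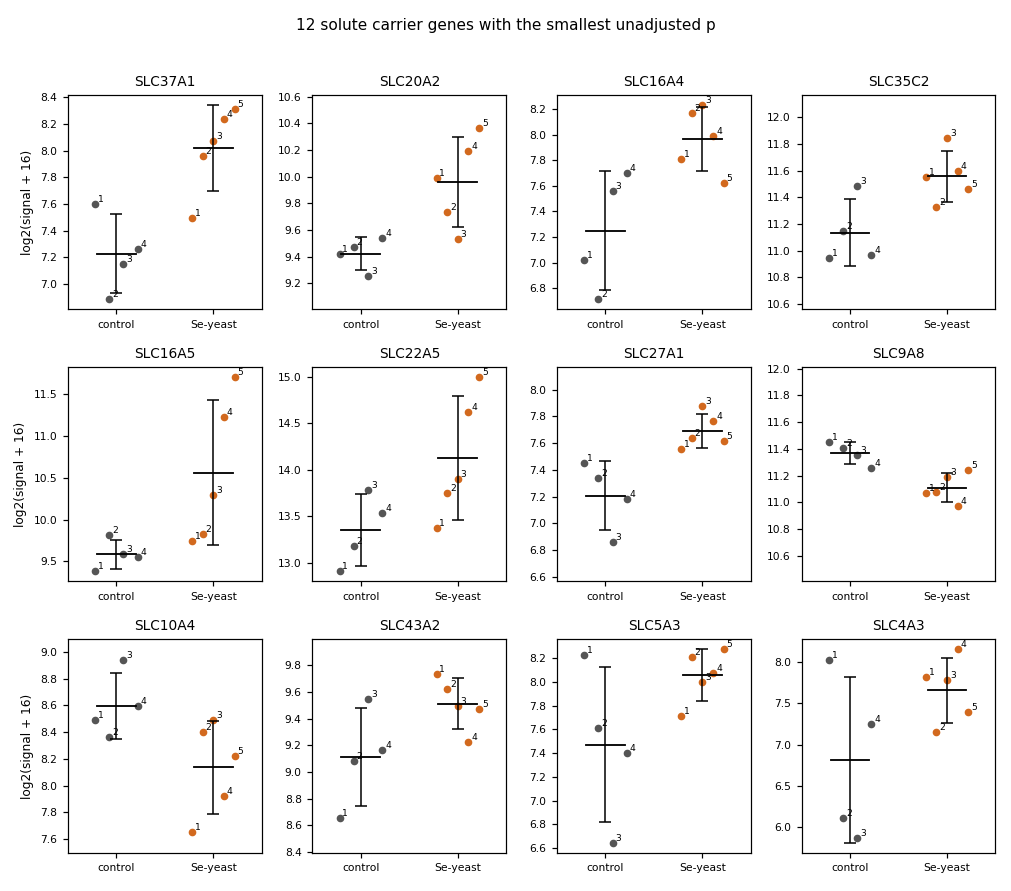
Each panel shows log2(signal + 16) of 1 gene (y axis) in 4 control birds (grey) and 5 Se-yeast birds (orange), for the 12 solute carriers with the smallest unadjusted p. Points are birds with their replicate number, horizontal lines are means and error bars are SDs, each panel has its own y range, and only SLC27A1 and SLC9A8 have groups that do not overlap.

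**Figure D3:**
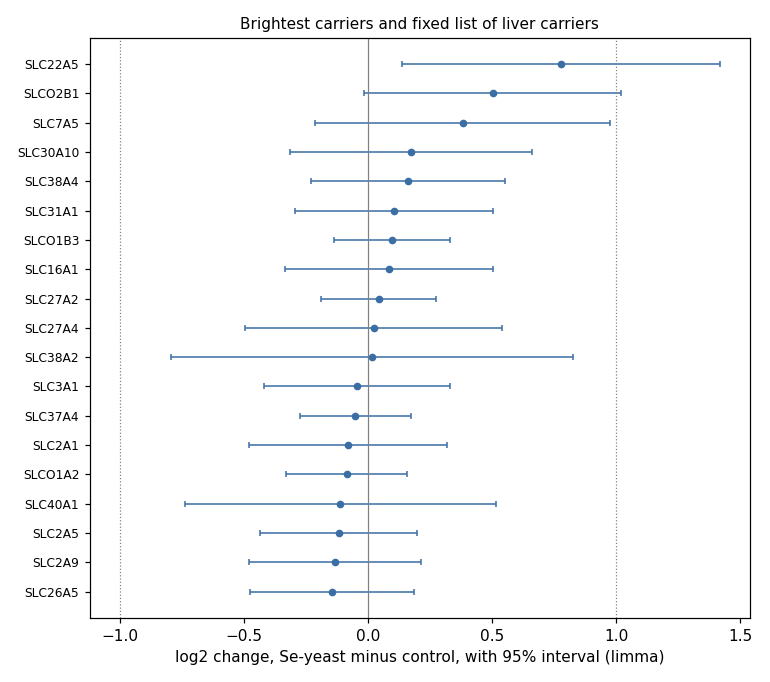
Points are log2 differences, Se-yeast minus control, with 95% limma intervals as bars, for the 10 carriers with the brightest probe sets and the listed liver carriers that were kept. Dotted lines mark a 2-fold change in either direction, and the intervals of SLC22A5 and SLCO2B1 alone reach beyond them.

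The carriers differed widely in how much they varied between birds of the same diet. The pooled SD within diets had a median of 0.32 on the log2 scale over the carriers and 0.30 over all probe sets at a level of 7 or more. It ran from 0.0749 for SLC37A4 to 1.39 for SLC4A10, and 29 carriers exceeded 0.5. Amino acid carriers had the highest class median, 0.44, and the Golgi carriers the lowest, 0.25. SLC4A10, a sodium bicarbonate carrier of neurons, had signals of 118, 158, 149 and 62.4 in control and 79.9, 76.3, 1424, 82.4 and 438 in Se-yeast livers, so only Se-yeast birds 3 and 5 stood out. A second probe set of SLC4A10 of nearly the same level gave a difference of 0.81, beside 0.77 (-0.78 to 2.32) on the first. Without Se-yeast bird 3 the first probe set gave 0.10.

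SLC4A1 encodes band 3, the anion exchanger of erythrocytes, which are nucleated in birds. The SLC4A1 signal was 208, 1295, 434 and 168 in control and 496, 192, 413, 259 and 205 in Se-yeast livers, and control bird 2 was highest. The summed signal of the 3 erythrocyte markers read here, the globin genes HBA1 and HBAD with SLC4A1 itself, was also highest in control bird 2, at 70499.7 against 17232 to 47775 in the others. All 3 had a lower mean with Se-yeast, and their part in the SLC4A1 values was not tested. The difference of SLC4A1 was -0.36 (-1.42 to 0.71), and 0.22 without that bird. SLCO1B1 was dim and scattered as well, with signals of 82.8, 451, 213 and 312 in control and 124, 239, 321, 147 and 178 in Se-yeast livers and a difference of -0.23 (-1.10 to 0.64).

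**Figure D4:**
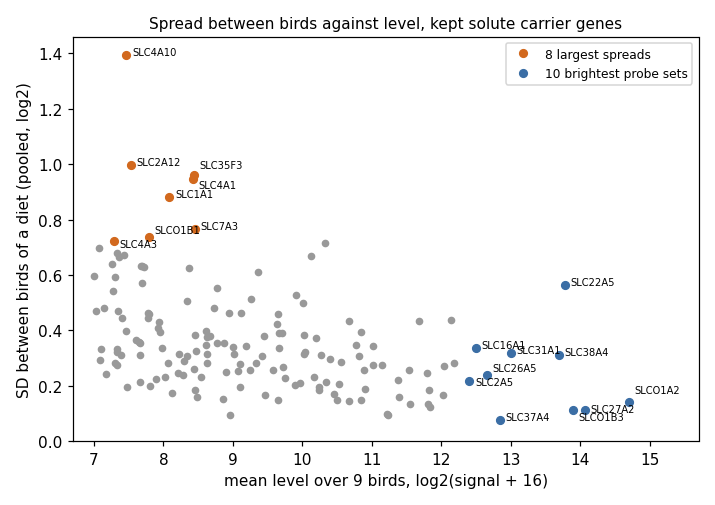
Each point is 1 of the 157 kept carriers, with its mean log2(signal + 16) over 9 birds on the x axis and the pooled SD between birds of a diet, in log2 units, on the y axis. The 8 largest spreads (orange) all lie below a level of 9, and the 10 brightest probe sets (blue) have SDs under 0.4 except SLC22A5.

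Several of the carriers with positive differences were highest in Se-yeast birds 4 and 5. These 2 birds held the 2 highest values of all 9 in 16 of 157 carriers (10.2%), among them SLC16A5, SLC20A2, SLC22A5, SLC30A10, SLC31A1, SLC37A1, SLC38A4, SLC7A5 and SLCO2B1. Over all probe sets at a level of 7 or more the same birds held the 2 highest values in 8.13%, so the carriers were near the background in this. They held the 2 lowest values in 4 carriers (2.55%), against 5.61% of all probe sets. Control bird 1 joined them as the 3 highest in 8 carriers, SLC38A2, SLC38A4, SLC7A5, SLC31A1, SLC30A1, SLC30A6, SLC22A23 and SLCO4A1 (5.1%, against 5.21% of all). The same 3 birds were the 3 lowest in 7 carriers (4.46%), against 3.16% of all. These counts were chosen after the values were seen and carry no test. The median signals of these arrays were 101 for control bird 1, 125 for Se-yeast bird 4, the highest of all, and 102 for Se-yeast bird 5. A part of array brightness or scaling in the pattern was not tested.

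**Figure D5:**
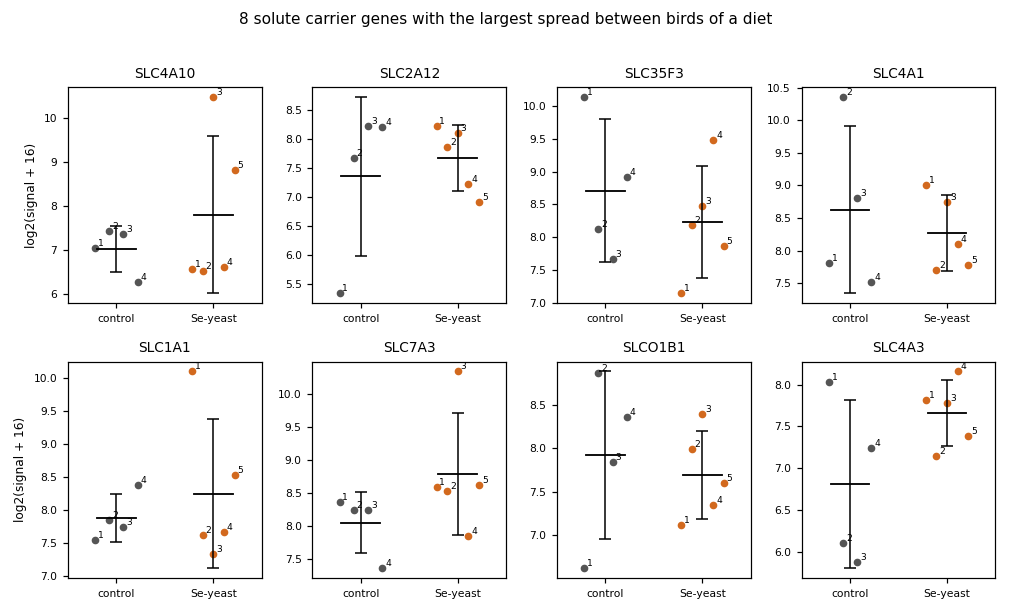
Each panel shows log2(signal + 16) of 1 gene (y axis, own range) in 4 control birds (grey) and 5 Se-yeast birds (orange), for the 8 carriers with the largest pooled SD within diets. Points carry the replicate number, lines are means and bars SDs, and 1 or 2 birds stand far from the rest in several panels, such as Se-yeast 3 and 5 for SLC4A10, Se-yeast 3 for SLC7A3, control 2 for SLC4A1 and Se-yeast 1 for SLC1A1.

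The 6 carriers on chromosome Z were set apart because Se-yeast bird 1 differed from the others on the sex chromosomes. In that bird SLC44A1, a choline carrier, lay -1.21 from the mean of the other 8 birds on the log2 scale, the arginine sensor SLC38A9 -0.57 and the zinc exporter SLC30A5 -0.40. All 3 were below every other bird. The brain cation exchanger SLC24A2 lay at -0.16 and the chloride cotransporter SLC12A2 at 0.26, both within the range of the others. SLC1A1, the glutamate and cysteine carrier EAAT3, went the other way, at 2.27 above that mean. The SLC1A1 signal was 171, 215, 198 and 318 in control and 1082, 181, 145, 187 and 352 in Se-yeast livers. Without Se-yeast bird 1 the difference of SLC1A1 went from 0.37 to -0.09, that of SLC44A1 from -0.30 to -0.06, that of SLC38A9 from -0.12 to -0.01 and that of SLC30A5 from -0.12 to -0.05. None of the 6 passed the threshold with or without the bird. The differences of SLC24A2 and SLC12A2 stayed positive, at 0.36 and 0.22. Among carriers on other chromosomes, leaving out the same bird took SLC37A1 from 0.79 to 0.92, SLC16A5 from 0.98 to 1.18, SLC22A5 from 0.78 to 0.97, SLC4A10 from 0.77 to 1.08, SLC35F3 from -0.48 to -0.21 and SLC26A5 from -0.15 to -0.04. It also took SLC4A1 from -0.36 to -0.54, SLC2A12 from 0.31 to 0.17, SLCO1B1 from -0.23 to -0.09 and SLC16A1 from 0.08 to 0.24.

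Where several bright probe sets read the same carrier, they often disagreed on small differences. Of the 80 carriers with 2 or more probe sets at a level of 7 or more, 48 had the same sign on all of them and 32 did not. The median gap between the lowest and highest difference was 0.20, and it exceeded 0.5 in 7 carriers, led by SLC6A12, SLC45A1 and SLC36A1 at 1.24, 0.86 and 0.85. Of the 94 genes below the level cut, 36 were still bright enough to be tested and 58 were not. The tested ones were split evenly, 18 higher and 18 lower, and 0 passed the threshold. Their smallest p belonged to SLC1A6, a glutamate carrier of the cerebellum, at 1.19 (0.48 to 1.90; limma adjusted p = 0.999), and the next to SLC34A1, the renal phosphate carrier, at -1.05. SLC13A5, the hepatic citrate importer, lay just below the cut at 6.95 and stood at -0.51 (-1.16 to 0.15).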

How the data were processed

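Liver RNA of 9 birds (4 control, 5 Se-yeast) was measured on 1-colour Affymetrix arrays. The authors deposited 1 linear intensity per probe set, made with MAS5 (version not stated) per the submitters' processing notes. Every array has a trimmed mean of 499.9, so differences are relative to the other signals of an array. No detection calls were used, and a dim signal could not be called absent. By the platform annotation 27178 probe sets have 1 symbol, 177 several and 11180 none, only the first were named, and 155 of 157 kept carriers matched the RefSeq table of GRCg7b, used for chromosomes and gene order. No sequences of carriers or probes were used.

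The 96 array controls among 38535 probe sets were left out. The constant 16 was added before log2, and probe sets at or above the 40th percentile of the mean (6.33) were tested, 23063 in all, with limma 3.58.1 in R 4.3.3 (lmFit, eBayes with an intensity trend, two-sided, Benjamini-Hochberg over all). Array measures were compared by exact permutation over all splits of the birds, with a smallest possible p of 0.0079. On simulated data of the same 23063 probe sets with 200 changed, 4.4% of changes of 0.5, 39.2% of changes of 1 and 80.8% of changes of 2 on the log2 scale were found. The simulated noise was normal and independent between probe sets. In the data only 6 probe sets passed, which makes the adjustment stricter than with 200 changed. These shares can therefore be too high for the carriers. The number of arrays limits the precision. Substrate classes follow the SLC family, apart from some genes placed by their own substrate, such as SLC5A3 and SLC5A8. Members and lists were chosen with earlier results of these data known. Values per bird are given for the 12 carriers with the smallest p, the 10 brightest, the 8 with the largest spread and a list of liver carriers, and any member may be named. Alternatives covered the added constant (1 or 64), the filter, quantile and median scaling, the variance model, array weights, a replicate block, sex chromosome covariates, the probe set and level rules and leaving out each bird. The labels state no pairing of same-numbered birds, and these did not deviate together over all probe sets (correlations of -0.11 to 0.04). A weak pairing, or 1 limited to few genes, would not be seen this way. The birds were treated as unpaired.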

Additional observations from a re-analysis of the deposited data

Results flagged for a closer look

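Within each diet, single birds far from the rest were looked for in 74 groups (the 37 carriers given per bird, in both diets). This flagged 2 groups (2.7%). Chance alone flags about 1 in 20 unselected groups. The carriers given per bird were partly chosen by their p and spread in these data, so the rates cannot be compared. Both flagged birds were control bird 4. For SLC7A3 its log2 level was 7.36 (a signal of 148), below the other control birds at 8.24 to 8.36. For SLC37A4 its log2 level was 13.02 (a signal of 8267), above the others at 12.81 to 12.84, a small distance in a gene with very little spread.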

How the results depend on the processing

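No carrier passed the threshold under any of the 25 alternatives (limma). The count at an unadjusted p under 0.05, 9 in the main setting, lay between 6 and 14, the highest without Se-yeast bird 2, and between 8 and 14 with single birds left out. Positive changes numbered 87 to 105 without single birds, and the median of the carriers lay between 0.037 and 0.083. Only median centring moved that median beyond its spread between birds, to -0.0066. Probe sets past the threshold, 6 in the main setting, were 2 with HINTW as a covariate (added after seeing the data, because the brightest W chromosome probe set read MBD2 and did not separate the birds), 3 without a variance trend, 3 with the replicate block and 3 to 7 without single birds. The causes were not tested. The labels state no pairing of same-numbered birds. With the replicate block, 11 carriers reached an unadjusted p under 0.05. Replicate number 5 occurs only in the Se-yeast group, so the block takes that bird out of the comparison. The differences with the block are therefore the same as those without Se-yeast bird 5. Signs that turned with the block are not separate from those that turned without that bird.

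Of 37 carriers given per bird, 24 kept their sign under all alternatives that could be fitted, among them the 9 with an unadjusted p under 0.05. None of the others was past the threshold with either sign. Signs turned with the HINTW covariate for SLC26A5 (0.0051), SLC1A1 (-0.23), SLCO1B1 (0.039), SLC40A1 (0.033) and SLC27A4 (-0.077), with the MBD2 covariate for SLC38A2 (-0.017), with median centring for SLC27A2 (-0.016), SLC27A4 (-0.036) and SLC38A2 (-0.043), and with the replicate block for SLC16A1 (-0.052) and SLC38A2 (-0.19). With single birds left out, the ranges that crossed 0 were SLC16A1 -0.052 to 0.24, SLC1A1 -0.094 to 0.60, SLC27A4 -0.18 to 0.15, SLC2A1 -0.17 to 0.028, SLC2A12 -0.36 to 0.60, SLC31A1 -0.00094 to 0.23, SLC38A2 -0.19 to 0.30, SLC3A1 -0.15 to 0.073, SLC40A1 -0.27 to 0.099, SLC4A1 -0.72 to 0.22 and SLCO1B1 -0.66 to 0.084. Of those that kept their sign, these moved by over 1.5 times, given as the value farthest, as a ratio, from the reported one with the bird left out: SLC43A2 0.25 (control 1), SLC5A3 0.31 (control 3), SLC4A3 0.53 (control 3), SLC7A3 0.35 (Se-yeast 3), SLC7A5 0.21 (Se-yeast 4), SLC4A10 0.10 (Se-yeast 3), SLC35F3 -0.0061 (control 1), SLC26A5 -0.039 (Se-yeast 1), SLCO1B3 0.033 (control 3), SLC38A4 0.014 (control 3), SLC2A9 -0.07 (Se-yeast 5), SLC2A5 -0.054 (Se-yeast 4), SLC30A10 0.012 (Se-yeast 5), SLCO1A2 -0.05 (Se-yeast 3), SLC37A4 -0.0047 (control 4) and SLC27A2 0.00098 (control 2). Precision was lowest among dim carriers, where the 8 largest spreads lay.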
